A study of Mus musculus with 4 samples.

Results

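Immediate early genes are a group of genes whose transcription starts within minutes of a stimulus without the need for new protein. Values for 10 of them, *Fos*, *Fosb*, *Fosl2*, *Jun*, *Junb*, *Jund*, *Egr1*, *Atf3*, *Ier2* and *Dusp1*, were taken by symbol from the 22096 gene symbols measured in sorted palatal mesenchyme, and all 10 were found with 1 RefSeq transcript each. The RNA came from 4 mouse embryos at embryonic day 13.5, all on a mixed strain background and all carrying 1 *Osr2*RFP knock-in allele, which places a red fluorescent protein under the endogenous *Osr2* locus. The mutants were 2 Foxf2-/-Osr2RFP/+ embryos, here mutant 1 and mutant 2 after the replicate numbers of the labels, and the controls were 1 Osr2RFP/+ embryo with both *Foxf2* alleles intact (control 1) and 1 Foxf2+/-Osr2RFP/+ embryo (control 2). The *Foxf2* null allele is constitutive, so that *Foxf2* is missing in every tissue of the mutants, and each control genotype was a single embryo. The palatal shelves of each embryo were digested with trypsin and pipetted apart, and RFP-positive cells were sorted by flow cytometry before RNA was extracted. No undissociated tissue was profiled in the files analysed here, so levels already present in the palate and levels reached during dissociation and sorting cannot be told apart.

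Levels are given as FPKM, fragments scaled to the length of the transcript and to the number of mapped fragments, which allows genes of different length to be compared. The depth in reads is unknown, and coverage divided by FPKM placed the libraries within 1.19-fold of each other in depth. *Foxf2* was at 85.4 FPKM in control 1, 45.1 in control 2, 1.41 in mutant 1 and 2.28 in mutant 2, lowest in the 2 embryos labelled as null. The markers of palatal mesenchyme were present in every embryo, with *Osr2*, which drives the reporter, between 128.9 and 147.5 FPKM, and limma, the test described below, called 0 of the 13 different between mutants and controls, where 0.0811% of genes tested were called. At an unadjusted p under 0.05 it gave 5 of the 13, *Shox2* (log2 difference -0.73), *Pax9* (0.50), *Col3a1* (-0.45), *Twist1* (-0.30) and *Osr1* (0.27), against 14.7% of genes tested. Of the other cell types, the 8 epithelial markers summed to between 3.79 and 6.63 FPKM, the 6 endothelial markers to between 0.417 and 1.5, the 8 macrophage and blood cell markers to between 17.0 and 26.5, the 7 muscle markers to between 1.03 and 2.37, and the 6 neuron and glia markers to between 3.81 and 7.51. The 9 erythroid markers, mostly hemoglobin genes, summed to 297.2 FPKM in control 1, 1837.3 in control 2, 1597.5 in mutant 1 and 4374.8 in mutant 2. This was 0.113% to 1.70% of all FPKM from entries of 200 bases or more, and the part of red blood cells in the results below was not tested.

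The proteins of the *Fos* and *Jun* families pair through leucine zippers to form AP-1, a transcription factor that binds DNA as a dimer. Fos proteins bind only with a partner such as a Jun protein, while Jun proteins can also pair with each other. Egr1 is a zinc finger transcription factor that is induced by serum and by growth factors through the ERK kinases, Atf3 is a stress-induced factor of the ATF/CREB family, Ier2 is a nuclear protein of the early response to growth factors, and Dusp1 is a phosphatase that inactivates MAP kinases. Enzymatic dissociation of tissue at warm temperature is known to induce many of these genes, and so are growth factors that act through ERK.

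The upstream sequence of 4 of these genes is shown because a cyclic AMP response element (CRE) and a TATA box are textbook elements of immediate early promoters. Each window holds the 250 bases of mm9 before the start of the RefSeq transcript, read 5′ to 3′ on the strand of the gene. Capitals mark TGACG, the core of a CRE, on either strand, and TATAAA. *Ier2*, the member with the highest level, is on the minus strand (window chr8:87186752-87187001), *Dusp1* on the minus strand (chr17:26645418-26645667), *Fos* on the plus strand (chr12:86814601-86814850) and *Jun*, which has neither motif, on the minus strand (chr4:94718914-94719163).
Ier2: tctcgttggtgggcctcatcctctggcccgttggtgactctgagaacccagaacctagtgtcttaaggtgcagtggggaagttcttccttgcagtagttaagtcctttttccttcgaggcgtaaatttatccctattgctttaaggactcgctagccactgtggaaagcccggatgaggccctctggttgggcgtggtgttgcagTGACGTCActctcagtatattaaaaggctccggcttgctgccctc
Dusp1: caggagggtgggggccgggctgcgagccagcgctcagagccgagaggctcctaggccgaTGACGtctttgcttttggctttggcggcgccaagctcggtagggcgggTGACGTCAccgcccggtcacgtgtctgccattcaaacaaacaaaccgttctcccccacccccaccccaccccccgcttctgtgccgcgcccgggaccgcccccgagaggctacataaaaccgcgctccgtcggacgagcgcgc
Fos: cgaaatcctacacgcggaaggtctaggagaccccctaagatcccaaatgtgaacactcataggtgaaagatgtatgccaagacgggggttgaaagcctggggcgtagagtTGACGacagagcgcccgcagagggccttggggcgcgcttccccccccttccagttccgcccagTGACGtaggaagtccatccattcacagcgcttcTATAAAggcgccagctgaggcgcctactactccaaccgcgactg
Jun: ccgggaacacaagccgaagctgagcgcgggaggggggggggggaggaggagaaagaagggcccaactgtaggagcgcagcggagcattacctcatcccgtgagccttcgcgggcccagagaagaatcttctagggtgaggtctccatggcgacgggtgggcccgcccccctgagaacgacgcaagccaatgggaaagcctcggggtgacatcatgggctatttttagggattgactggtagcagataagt

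The core TGACG was found on either strand in the window of 7 of the 10 members, *Fos*, *Fosb*, *Junb*, *Egr1*, *Atf3*, *Ier2* and *Dusp1*, and in 28.6% of the windows of 11377 genes that reached 1 FPKM in any embryo. The complete palindrome TGACGTCA, which contains that core on both strands, was present in *Ier2*, from 45 to 38 bases before the start, and in *Dusp1*, from 143 to 136 bases before it, against 2.92% of all windows. TATAAA was found in *Fos* alone among the members, 44 to 39 bases before the start, and in 5.81% of all windows. A CArG box, the element bound by serum response factor, was present in *Egr1*, at 2 positions, and in 1.05% of all windows. The AP-1 site TGANTCA was in no member and in 3.44% of all windows, and GCGNGGGCG, the site of Egr proteins, was in *Fosb* and *Fosl2* and in 10.5% of all windows. A match of letters in these windows is a description, and elements farther upstream were not searched. Variants of these patterns, such as TGACATCA in the *Jun* window, were not searched either.

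The members are short genes. Their transcripts spanned a median of 3278 bases of mm9, against 22012 bases for the 11571 genes that reached 1 FPKM in any embryo. In 4 members, *Jun* (chromosome 4, 94715727 to 94718913), *Junb* (chromosome 8, 87500808 to 87502647), *Jund* (chromosome 8, 73221638 to 73224515) and *Ier2* (chromosome 8, 87185230 to 87186751), the span in the genome equalled the length of the transcript, so that these RefSeq transcripts have no intron, as in 3.30% of the 11571 genes. The others were *Fos* (chromosome 12, 86814851 to 86818219), *Fosb* (chromosome 7, 19888045 to 19895394), *Fosl2* (chromosome 5, 32438845 to 32460212), *Atf3* (chromosome 1, 192994176 to 193007212), *Dusp1* (chromosome 17, 26642536 to 26645417) and *Egr1*, with a span of 3750 bases. FPKM of a gene without introns does not separate spliced from unspliced RNA.

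The immediate early genes were at low to middling levels in the sorted cells of all 4 embryos, and none differed between the mutant and control embryos by the test used. *Ier2* was the highest of the 10 in every embryo, followed by *Jun*, *Dusp1* and *Egr1* between 6.27 and 9.82 FPKM, while *Junb* and *Atf3* were at most 0.387 FPKM. The summed level of the 10 genes was 53.4 FPKM in control 1, 47.2 in control 2, 43.7 in mutant 1 and 55.2 in mutant 2, which gave means of 50.3 ± 4.42 for controls and 49.4 ± 8.1 for mutants (SD, n = 2 each). The 2 mutants thus bracketed both controls. In bulk RNA of a sorted population, fewer cells that express a gene and less RNA per cell cannot be told apart.

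**Figure D1:**
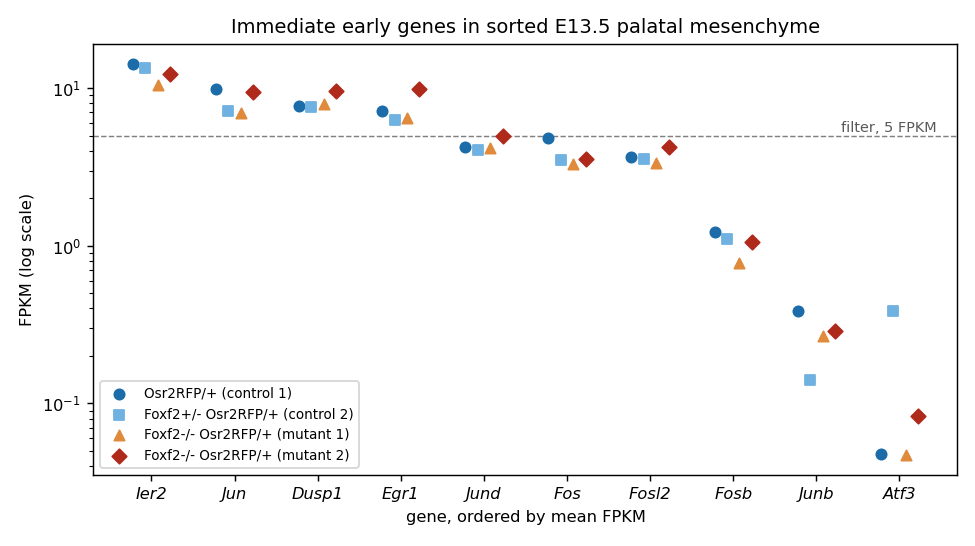
FPKM of the 10 immediate early genes on a log axis, with 1 point for each embryo and genes ordered by their mean. *Ier2* lies between 10.5 and 14.3 FPKM, 4 genes have points above the dashed line at 5 FPKM that marks the filter of the test, and *Junb* and *Atf3* lie at or below 0.387 FPKM.

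Among the *Jun* family, *Jun*, the founding member and a strong activator within AP-1, was at 9.82 FPKM in control 1, 7.14 in control 2, 6.91 in mutant 1 and 9.37 in mutant 2. One embryo of each group was high and the other low, and the groups overlapped. *Jund*, which many cells express without a stimulus, was the steadiest of the members, at 4.22 and 4.07 FPKM in controls 1 and 2 and at 4.17 and 4.94 in mutants 1 and 2, with a highest value 1.21 times the lowest. *Junb*, which can oppose Jun in AP-1, was at 0.386 FPKM in control 1, 0.142 in control 2, 0.268 in mutant 1 and 0.286 in mutant 2. Both mutants lay between the controls for *Junb*, at a mean read coverage of 0.229 to 0.524 over the transcript, which leaves little depth for a comparison.

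Among the *Fos* family, *Fos* was at 4.85 FPKM in control 1, 3.49 in control 2, 3.29 in mutant 1 and 3.55 in mutant 2. Control 1 stood above the other 3 embryos, which lay close together. *Fosl2*, a Fos relative that lacks a strong activation domain, was at 3.67 and 3.57 FPKM in controls 1 and 2 and at 3.36 and 4.25 in mutants 1 and 2. *Fosb* was at 1.22 and 1.11 FPKM in controls and at 0.779 and 1.06 in the mutants, with both mutants below both controls. The 3 *Fos* family genes summed to 9.75 and 8.17 FPKM in the controls and to 7.43 and 8.86 in the mutants, and the 3 *Jun* family genes to 14.4, 11.3, 11.4 and 14.6 FPKM in the same order. The ratio of the *Fos* sum to the *Jun* sum was 0.676 in control 1 and 0.720 in control 2, against 0.655 in mutant 1 and 0.607 in mutant 2, so that *Jun* family RNA was the more abundant in every embryo.

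Of the remaining members, *Ier2* was at 14.3 and 13.4 FPKM in controls 1 and 2 and at 10.5 and 12.2 in mutants 1 and 2. Both mutants were below both controls, and *Ier2* made up 26.8% and 28.4% of the summed FPKM of the members in the controls and 24% and 22.2% in the mutants. *Dusp1* was at 7.74 and 7.59 FPKM in controls and at 7.88 and 9.56 in the mutants, which were both above both controls, mutant 1 by only 0.03 over control 1 on the log2 scale. *Egr1* was at 7.18 FPKM in control 1, 6.27 in control 2, 6.48 in mutant 1 and 9.81 in mutant 2, and only mutant 2 stood apart from the rest. *Atf3* was at 0.0477 FPKM in control 1, 0.387 in control 2, 0.0469 in mutant 1 and 0.0838 in mutant 2. The Foxf2+/-Osr2RFP/+ embryo was the highest for *Atf3*, 8.24 times the lowest value, at a mean coverage of only 0.623 reads over the transcript, and the other 3 embryos were at 0.0648 to 0.130.

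The order of the levels had clear steps and groups of neighbours that could not be separated. *Ier2* was above *Jun* in all 4 embryos with no overlap of their ranges, *Egr1* was likewise above *Jund*, *Fosl2* above *Fosb*, and *Fosb* above *Junb*. *Jun*, *Dusp1* and *Egr1*, with mean FPKM of 8.31, 8.19 and 7.44, had overlapping ranges, as did *Jund*, *Fos* and *Fosl2* at 4.35, 3.80 and 3.71, and *Junb* and *Atf3*. Compared with those 11571 genes, the mean of *Ier2* was above 70.6% of them, that of *Jun* above 57.3%, that of *Fos* above 31.4% and that of *Fosb* above 4.28%.

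To ask whether loss of Foxf2 was accompanied by a different level of these genes, the mutant and control embryos were compared with limma on log2(FPKM + 0.1), which understates differences of low genes. A gene was called at a Benjamini-Hochberg adjusted p below 0.05 if its groups also differed by over 1.5-fold, as 0.0811% of the 7399 genes reaching 5 FPKM in any embryo did. Only *Ier2*, *Jun*, *Dusp1* and *Egr1* were among these 7399 genes, and limma called 0 of the 4. At an unadjusted p under 0.05 it gave 1 of the 4, *Ier2*, against 14.7% of all genes tested. The log2 difference of *Ier2* was -0.28 (standard error 0.105, 95% interval -0.52 to -0.05, adjusted p = 0.283), that of *Dusp1* was 0.18 (standard error 0.118, interval -0.09 to 0.45, adjusted p = 0.523), and that of *Egr1* was 0.25 (standard error 0.182, interval -0.17 to 0.66, adjusted p = 0.564). *Jun* differed by -0.06 (standard error 0.181, interval -0.47 to 0.36, adjusted p = 0.917 from limma), and this sign turned when the libraries were scaled by median ratios or by quantiles. With either scaling, 2 of the 4, *Dusp1* and *Ier2*, had an unadjusted p under 0.05 from limma. The share of all genes under that p was counted only without scaling, so these 2 cannot be set against it. limma called 0 of the 4, where it called 9 of 7372 genes with median ratios and 11 of 7399 with quantiles. *Dusp1* then differed by 0.258 and 0.254 (limma adjusted p = 0.397 and 0.399), and *Ier2* by -0.204 and -0.205 (limma adjusted p = 0.403 and 0.412).

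Without such scaling, the intervals of the 4 tested genes exclude a 2-fold difference in either direction but, other than for *Ier2*, include 0. With the filter lowered to 1 FPKM, *Fos*, *Fosb*, *Fosl2* and *Jund* were tested as well, and 0 of 8 members were called by limma, against 0.0605% of 11571 genes, with 1, *Ier2*, at an unadjusted p under 0.05 against 13% of genes. The log2 difference was -0.26 for *Fos* (adjusted p = 0.557), -0.33 for *Fosb* (adjusted p = 0.657), 0.06 for *Fosl2* (adjusted p = 0.895) and 0.13 for *Jund* (adjusted p = 0.706), all from limma. The interval was widest for *Fosb*, from -0.97 to 0.32. Without any filter, *Junb* differed by 0.14 (interval -0.84 to 1.12) and *Atf3* by -0.71 (interval -2.17 to 0.76), neither of them called (limma adjusted p = 0.921 and 0.707). In that fit limma called 0 of the 10 members and 0% of the 17171 genes, and an unadjusted p under 0.05 was given to 1 member, *Ier2*, and to 10.3% of genes.

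No member met the second criterion, a mean of the mutants more than 1.5-fold away from each control in the same direction, which 0.662% of the 7399 genes and 3.72% of the 17171 genes with any value above 0 met. *Fos* was 0.49 lower on the log2 scale than control 1 and 0.03 lower than control 2, and *Junb* was -0.36 against control 1 and 0.64 against control 2. The choice of control thus set the size of the difference for *Fos* and its sign for *Junb*, *Jun* (-0.28 and 0.17) and *Atf3* (0.15 and -1.57). The groups did not overlap for 3 of the 10 members, where they did not for 40.7% of the 17171 genes. *Fosb* and *Ier2* were lower in both mutants, as were 28.8% of the genes, and *Dusp1* was higher in both, as were 11.9%. For single genes, the smallest p of an exact two-sided permutation test of 2 against 2 embryos is 0.333. When the libraries were scaled by median ratios, *Fosl2*, *Jund* and *Egr1* joined *Dusp1* as higher in both mutants than in both controls, where the share of all 17171 genes rose from 11.9% to 20.2%, and *Fosb* and *Ier2* were lower, where it fell from 28.8% to 18.7%. *Jun* then differed by 0.02.

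Across the 4 tested members the median log2 difference between mutants and controls was 0.06, with 2 genes higher and 2 lower. The median of all 7399 genes was -0.08, a shift of the whole distribution that scaling by median ratios took to 0.00 and which took the members to 0.14. These members lay slightly above the bulk of genes on either scale, by less than the difference between the 2 mutant embryos.

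**Figure D2:**
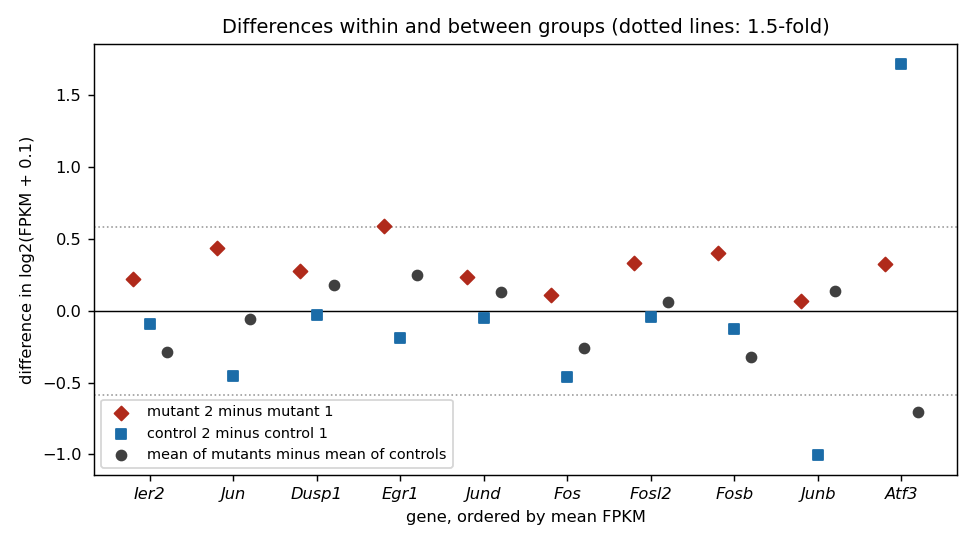
Differences in log2(FPKM + 0.1) for each member between the 2 mutant embryos (diamonds), between the 2 control embryos (squares), and between the mean of the mutants and the mean of the controls (circles), with dotted lines at 1.5-fold. All 10 diamonds are above 0, 9 of the 10 squares are below 0, and 5 circles lie on each side.

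Embryos of the same group differed in these genes as well. All 10 were higher in mutant 2 than in mutant 1, where 60.7% of the 17171 genes were higher. The differences ran from 0.07 for *Junb* to 0.59 for *Egr1* on the log2 scale, and *Jun* at 0.43, *Fosb* at 0.40 and *Fosl2* at 0.33 were the next largest. *Egr1* was the only member past 1.5-fold between these embryos. In either direction, 10.7% of the 17171 genes passed it, and 1.41% of the 7399 genes that, like *Egr1*, reached 5 FPKM in any embryo. For the 8 members that reached 1 FPKM, the median difference was 0.30 against 0.08 for all 11571 genes, of which 67.1% were higher in mutant 2, and 85.3% of those genes had a smaller value than 0.30.

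The values of most genes were lower in mutant 1. After the libraries were scaled by median ratios, 48.1% of the 17171 genes were higher in mutant 2, and all 10 members still were, by 0.01 for *Junb* to 0.51 for *Egr1*, with 0 past 1.5-fold. The median over the 8 members was then 0.22, and that over all 11571 genes was 0.00. Each side of this comparison is 1 embryo, so the difference has no replicate check. Mutant 2 also had the highest erythroid sum, 4374.8 FPKM against 1597.5 in mutant 1, and the macrophage and blood cell markers summed to 26.5 FPKM in mutant 2 and 18.2 in mutant 1. The part of these cells in the result was not tested.

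In the controls, 9 of the 10 members were lower in the Foxf2+/-Osr2RFP/+ embryo than in the Osr2RFP/+ embryo, where 57.1% of the 17171 genes were lower. *Fos* and *Jun* differed most among the genes above 1 FPKM, by -0.46 and -0.45 on the log2 scale, and *Junb* by -1.01 at its low coverage. *Atf3* went the other way, by 1.72, and these low genes were the only members past 1.5-fold, as were 11.3% of the 17171 genes. *Dusp1* at -0.03, *Fosl2* at -0.04 and *Jund* at -0.05 were nearly equal. The median over the 8 members that reached 1 FPKM was -0.11, against -0.06 for all 11571 genes, of which 62.6% were lower in control 2, and with libraries scaled by median ratios 7 of the 10 remained lower where 48.9% of genes were. Here the erythroid sum went the other way from the members, at 297.2 FPKM in control 1 and 1837.3 in control 2. The 2 controls differ in *Foxf2* genotype, and genotype and embryo cannot be told apart.

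Both orders held together, mutant 2 above mutant 1 and control 1 above control 2, for 9 of the 10 members and for 35.3% of the 17171 genes. Set against control 2, mutant 2 had higher values for 7 of the 10 members, with a median over the 8 genes above 1 FPKM of 0.26, where 47.2% of the 17171 genes were higher. Mutant 1 against control 1 had lower values for 9 of the 10 with a median of -0.29, where 67.2% of the genes were lower. With scaling by median ratios this second count fell to 5 of the 10 and its median to -0.15, with 47% of the genes lower. The first count stayed at 7 of the 10, with 49.4% of the genes higher.

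**Figure D3:**
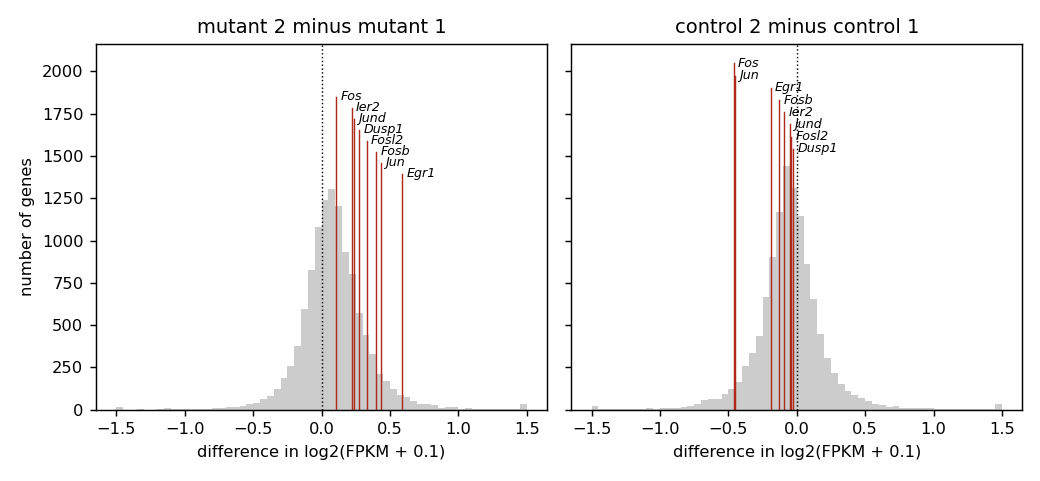
Number of genes by their difference in log2(FPKM + 0.1) between the 2 mutant embryos (left) and the 2 control embryos (right), for the 11571 genes that reached 1 FPKM in any embryo, in gray, with genes beyond 1.5 gathered in the outermost bars. Red lines mark the 8 members among them, which all lie above 0 on the left and below 0 on the right.

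The levels of the 4 tested members, averaged as centred log2 values, were 0.09 in control 1, -0.11 in control 2, -0.18 in mutant 1 and 0.20 in mutant 2. The non-member genes nearest to this profile, by root mean square difference over the 4 embryos, were *Pygo1* at 0.0068, *Gpr124* at 0.0123, *Imp4* at 0.0143, *Hscb* at 0.0161 and *Lrrc20* at 0.0165. *Pygo1* was at 22.1 FPKM in control 1, 19.6 in control 2, 18.5 in mutant 1 and 23.98 in mutant 2. The members themselves were farther from their own mean profile than these genes, from 0.102 for *Jun* to 0.167 for *Ier2*, and the median over all genes was 0.157. The nearest genes were picked for the smallest distances among many, so their lead over the members follows from that choice. A gene with the same level in every embryo would lie at 0.151 from this profile, and the members' own distances are no independent measure, since the profile is their mean.

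A wider list of 48 other early response genes covered a wide range of levels. Of these, 14 were below 1 FPKM in every embryo, among them *Fosl1*, *Egr2*, *Egr3*, *Klf2*, *Nr4a3*, *Arc* and *Ptgs2*, and *Egr4* and *Il6* were listed at 0 throughout. The highest were *Zfp36l1*, an RNA-binding protein that promotes mRNA decay, at 96.0 ± 8.01 FPKM in controls and 96.2 ± 15.2 in the mutants, and *Phlda1* at 38.3 ± 2.01 and 54.8 ± 5.55 (SD, n = 2 each). *Mcl1*, a survival factor of the Bcl2 family, was at 28.2 ± 2.80 and 28.1 ± 0.962 FPKM, and *Plk2*, a kinase, at 21.5 ± 4.11 and 31.2 ± 0.281. Of the 17 genes past the filter, limma called 0, and 4, *Phlda1*, *Plk2*, *Gadd45a* and *Myc*, had an unadjusted p under 0.05, against 14.7% of all genes tested. The largest differences were in *Gadd45a*, a growth arrest gene, at -0.67 (adjusted p = 0.240), *Plk2* at 0.55 (adjusted p = 0.153) and *Phlda1* at 0.51 (adjusted p = 0.114), all from limma. All 17 were higher in mutant 2 than in mutant 1, where 70.2% of genes were, and 12 of the 17 were when the libraries were scaled by median ratios, where 49.5% of genes were. Both mutants were above both controls in 6 of the 17, against 8.66% of genes, and below both in 3, against 38.7%. With median ratios and with quantiles 9 were above, against 21.9% and 20.6%, and 2 were below, against 22.1% and 22.6%. limma then gave 7 and 8 of the 17 an unadjusted p under 0.05, a share not counted for all genes, and called 0.

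The genes that act upstream of the immediate early genes were expressed in every embryo. All 20 kinases and factors listed, among them the ERK gene *Mapk3*, the p38 kinase gene *Mapk14*, the serum response factor gene *Srf* and its partners *Elk1*, *Elk3* and *Elk4*, reached 1 FPKM in some embryo. *Srf* was at 7.77 and 7.79 FPKM in controls and 9.12 and 10.1 in the mutants, a log2 difference of 0.30 (adjusted p = 0.266 from limma), and *Mapk3* was at 23.6 ± 0.668 FPKM in controls and 22.3 ± 0.0549 in the mutants (SD, n = 2 each). The other factors that can join AP-1 dimers included *Atf4*, a factor of the integrated stress response, at 60.97 ± 0.115 FPKM in controls and 50.3 ± 6.71 in the mutants and *Batf* at 11.4 ± 2.16 and 8.61 ± 0.103 (SD, n = 2 each). *Batf* had a log2 difference of -0.39 (adjusted p = 0.259 from limma). Of 18 upstream genes and 7 AP-1 partner genes past the filter, limma called 0, and 1 of the 18 and 3 of the 7 had an unadjusted p under 0.05, against 14.7% of all genes tested.

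Genes that report ERK signalling downstream of growth factors, such as the *Sprouty* genes and the ERK phosphatase gene *Dusp6*, were also measured. *Dusp6* was at 28.0 and 30.2 FPKM in controls and 39.9 and 40.2 in the mutants, a log2 difference of 0.46 (standard error 0.0919, adjusted p = 0.113 from limma). Its 2 mutants lay close together and above both controls. *Dusp7* was at 67.6 ± 0.297 FPKM in controls and 66.1 ± 11.1 in the mutants, *Spry1* at 10.9 ± 0.327 and 12.0 ± 0.506, *Spry4* at 16.7 ± 2.73 and 15.4 ± 1.05, and *Spred2* at 20.3 ± 1.88 and 21.8 ± 0.866 (SD, n = 2 each). Of the 8 genes past the filter, limma called 0, with 1, *Dusp6*, at an unadjusted p under 0.05 against 14.7% of all genes tested, and the median log2 difference was 0.02 against -0.08 for all genes tested. Both mutants were above both controls in 2 of the 8, against 8.66% of genes tested. With scaling by median ratios this was 5 of the 8, against 21.9%, and 5 with quantiles, against 20.6%. With either scaling 7 of the 8 had higher means in the mutants, against 50.1% and 48.1% of genes. The median of the 8 was then 0.10 and 0.09, against 0.00 and -0.01. limma called 0 of the 8, where it called 9 of 7372 and 11 of 7399 genes. The part of ERK signalling was not tested.

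Heat shock genes are a second readout of stress in dissociated cells. The inducible *Hspa1a* and *Hspa1b*, whose near-identical sequences can share reads, were near 0 in every embryo, at 0.234, 0.12, 0.321 and 0.225 FPKM for *Hspa1a* in the order control 1, control 2, mutant 1 and mutant 2. They were the only 2 of the 16 listed heat shock and chaperone genes below 1 FPKM in every embryo. *Hspb1* was at 0.358 ± 0.106 FPKM in controls and 0.9065 ± 0.219 in the mutants. *Hsph1* was at 22.1 ± 0.682 and 19.3 ± 1.46, *Dnajb1* at 18.9 ± 1.85 and 17.95 ± 0.637, and *Bag3* at 13.1 ± 0.555 and 13.1 ± 1.47 (SD, n = 2 each). The chaperones that cells express without stress were abundant, led by *Hspa8* at 773.1 ± 29.7 FPKM in controls and 634.2 ± 23.8 in the mutants and *Hsp90ab1* at 606.1 ± 18.9 and 563.2 ± 4.12 (SD, n = 2 each). In 10 of the 12 heat shock and chaperone genes past the filter both mutants were below both controls, as in 38.7% of all genes tested. This held for 6 of the 12 with scaling by median ratios, against 22.1% of genes, and for 5 with quantiles, against 22.6%. All 12 had lower means in the mutants, where 73.1% of all genes did, but 9 of the 12 did when libraries were scaled by median ratios and 10 by quantiles, against 49.9% and 51.9% of genes. The median log2 difference was -0.21, against -0.08 for all genes, and limma called 0 of the 12. An unadjusted p under 0.05 was given to 5 of the 12, against 14.7% of all genes tested. It was given to 4 and 3 of the 12 with scaling by median ratios and by quantiles, where the share of all genes was not counted. *Hspe1*, a mitochondrial chaperonin, had the largest difference, at -0.35 (adjusted p = 0.194 from limma), with 184.5 and 183.4 FPKM in controls and 142.6 and 146.2 in the mutants. From mutant 1 to mutant 2 the median difference of the 12 heat shock and chaperone genes was 0.02, and -0.06 after scaling by median ratios. For the 4 tested immediate early genes it was 0.355 and 0.275. The part of stress in either list was not tested.

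**Figure D4:**
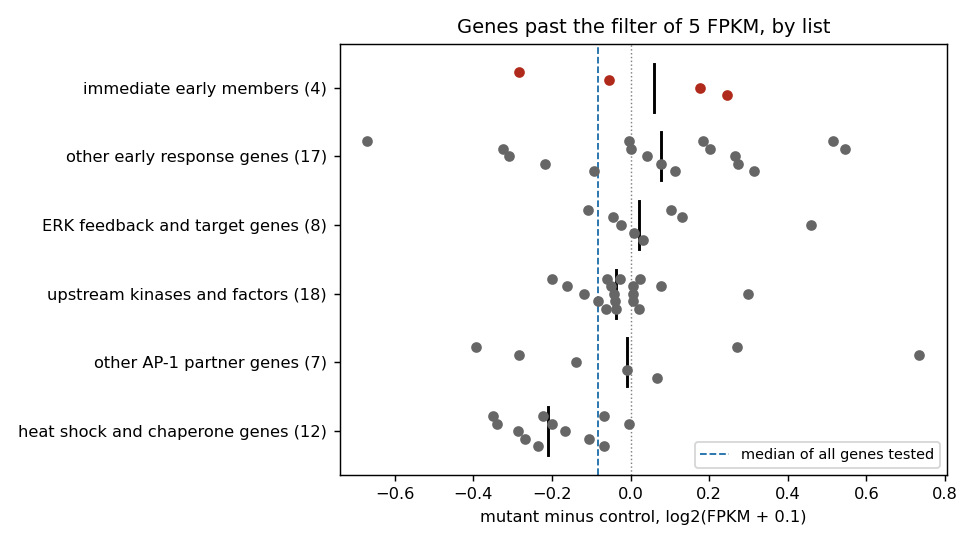
Log2 differences between mutant and control embryos for the genes past the filter of 5 FPKM, with 1 point for each gene and a black bar at the median of each list, the number of genes in brackets and the median of all genes tested as a dashed line. The 4 immediate early genes spread from -0.28 to 0.25, and the 12 heat shock and chaperone genes lie at or below 0 with a median of -0.21.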

How the data were processed

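RNA from RFP-positive cells of 4 embryos was sequenced, and the authors aligned the reads to mm9 (Bowtie 0.12.7 is among the tools in the submitters' processing notes) and computed with Cufflinks the deposited FPKM of each RefSeq transcript, scaled to transcript length and to mapped fragments. The deposited coverage signal, the mean read depth over a transcript, was used only as a measure of depth, and read counts are unknown. Entries under 200 bases were left out, and the FPKM of entries of a symbol were summed. Genes that reached 5 FPKM in any embryo were tested on log2(FPKM + 0.1) with limma 3.58.1 (R 4.3.3). The fit used 1 spread for both groups, empirical Bayes moderation with a trend of the spread with the level of a gene, and Benjamini-Hochberg adjustment over all genes tested. The 2 control genotypes formed 1 group. Filters of 1 FPKM and of none were used for members under 5 FPKM. Each sample is a separate embryo, and the p-values measure only the spread between these embryos. The members, lists and tests were chosen with earlier results of these data known. Beyond the members, the named genes of a list were the 4 highest by mean FPKM and the 2 with the largest absolute log2 difference, and the 5 genes nearest to the profile of the members were named, with *Foxf2*. Other genes named from the lists, such as *Hspa1a*, *Hspa1b*, *Myc*, *Twist1* and *Egr4*, were chosen after their values were seen. Upstream windows were read from the mm9 genome at the RefSeq starts of the files. The test was checked on simulated data. Alternatives changed the pseudocount, filter, entries, scaling, genotype coding, variance trend and embryos. Some of the genes on these lists are not reported here by name.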

Additional observations from a re-analysis of the deposited data

How the results depend on the processing

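Over 65 alternative values for the 8 members that reached 1 FPKM, 60 kept their direction and stayed uncalled by limma, and 5 turned. In fits of all 4 embryos the limma adjusted p ran from 0.242 to 0.975. Many of the 60 could not turn. Each member has 1 entry, so another filter, choice of entries, variance trend or separate genotype means left its log2 difference unchanged. For *Fos*, *Fosb*, *Fosl2* and *Jund* the only alternative was another filter, which could not change their direction. *Jun* turned to 0.024 with scaling by median ratios and to 0.022 with quantile normalization, and ranged from -0.28 to 0.17 when 1 embryo was left out, at 0.17 without control 1 and 0.16 without mutant 1. *Egr1* ranged from -0.049, without mutant 2, to 0.54. The 6 genes called by limma among all genes became 16 with a pseudocount of 1, 0 without a filter, 26 with short entries, 11 with quantile normalization, 1 with the highest entry per symbol, 78 with separate means for the 3 genotypes and 43 with the number of null alleles as a linear term, and ranged from 7, without mutant 2, to 122, without control 2 (25 without control 1 and 8 without mutant 1). The 49 genes past 1.5-fold against both controls became 216 at 1 FPKM, 23 at 10 FPKM, 639 without a filter, 184 with short entries and 96 with the highest entry, and 71, without mutant 2, to 218, without control 2 (90 without control 1 and 75 without mutant 1). At 10 FPKM only *Ier2* remained, and its differences were -0.22 from control 1 to mutant 2, -0.35 from control 2 to mutant 1 and -0.13 from control 2 to mutant 2. No paired analysis was possible because the labels match no mutant embryo with a control embryo. The cause of these changes was not tested. Depth limits *Junb* and *Atf3* most, and with 1 or 2 embryos per genotype differences under the spread between embryos were not detectable.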
